A study of Mus musculus with 4 samples.

Results

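The enzymes described here keep hydrogen peroxide, lipid peroxides and reactive electrophiles in check: glutathione transferases, glutathione peroxidases, peroxiredoxins, thioredoxin reductases, superoxide dismutases, catalase, the enzymes that make and recycle glutathione, and the quinone reductase Nqo1. Genes were taken by symbol, and each was read from its brightest probe set, judged by mean log2 signal over the 4 arrays. This gave 46 of the 18194 genes measured. Prdx1 was not analysed here because each of its probe sets is annotated to a second gene as well, and Prdx5 and Prdx6 were not analysed here.

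Glutathione is a tripeptide built from glutamate, cysteine and glycine by the Gclc-Gclm ligase and by Gss, and Gsr returns its oxidised form to the reduced form with NADPH. Transferases couple glutathione to electrophiles such as the aldehydes that arise from oxidised lipid, while glutathione peroxidases and peroxiredoxins reduce peroxides with electrons from glutathione or thioredoxin. Superoxide dismutases feed this system with hydrogen peroxide, and catalase breaks that down in peroxisomes. In fat cells, Gsta4 is known for the removal of 4-hydroxynonenal, and many genes of the system are targets of the transcription factor NRF2.

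RNA came from the epididymal fat pad, a visceral depot next to the testis. The mice were C57Bl/6J and began a diet with 60% of energy from fat at 9 weeks of age and stayed on it for 21 weeks. The high-calcium diet held 1.8% calcium together with whey protein isolate, and the standard high-fat diet held 0.4% calcium, so calcium and whey protein were not varied separately. Each diet was given to 10 mice, and 2 mice per diet were profiled. The labels assign 2 arrays to the high-calcium diet and 1 to the standard diet. The diet of the last array is open, because its title names no group. Words of that title also occur in a label of high-calcium replicate 2. The array of open diet entered no diet mean and no test. It did count in the choice of probe sets, in the background filter over 4 arrays and in the ranks among the 4 arrays. In each sentence with 4 values below, the order is high-calcium replicate 1, high-calcium replicate 2, standard array and array of open diet.

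Values are log2 of the deposited linear signal, which was not rescaled. A gene counted as above background on an array when it was brighter than the array's median. On the log2 scale that median was -3.38 on high-calcium replicate 1 and between -4.09 and -3.99 on the other arrays. On that basis 39 of the 46 genes were above background on all 4 arrays. All 10 measured adipocyte markers, among them Adipoq, Lep and Fabp4, were above background on every array. High-calcium replicate 1 stood apart from the other arrays: the median absolute log2 gap over genes above background was 0.25 to 0.28 between it and each other array, and 0.16 to 0.18 among the other 3. The standard group is 1 array, so the spread in every test came from the 2 high-calcium arrays, and diet cannot be told apart from what was particular to that array.

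No gene of the set passed the test between the diets. limma called 0 of the 46 at an adjusted p under 0.05, and it called 0% of all genes. The lowest adjusted p among the 46 was 0.978, that of Gstm7, which was also the only member with an unadjusted p under 0.05, where 4.94% of all genes had one. Among the 39 genes above background the SE of the log2 difference ran from 0.32 to 0.98. The lowest SE over all genes was 0.32 as well, because the model draws each variance toward a value shared by all genes.

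By position alone, 17 of these 39 genes had less signal on each high-calcium array than on the standard array, against 27.1% of all genes above background, and 10 were higher on both, against 35.4%. As shares of the 39 these are 43.6% and 25.6%. The median log2 difference was -0.08 over the 39 genes and 0.03 over all 10463 genes above background. The median of the 39 genes was 0.01 on replicate 1 and -0.09 on replicate 2, so its sign came from replicate 2. Over all genes above background the medians were 0.064 and 0.005, so the 39 genes lay below these on both replicates. Over all 46 genes, dim ones included, 18 were lower on both, against 23.9% of all genes, and 13 higher on both, against 38.6%. The standard array was the highest of the 4 arrays for 14 of the 39 genes, against 19.7% of all genes above background, and the lowest for 7, against 22.9%.

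**Figure D1:**
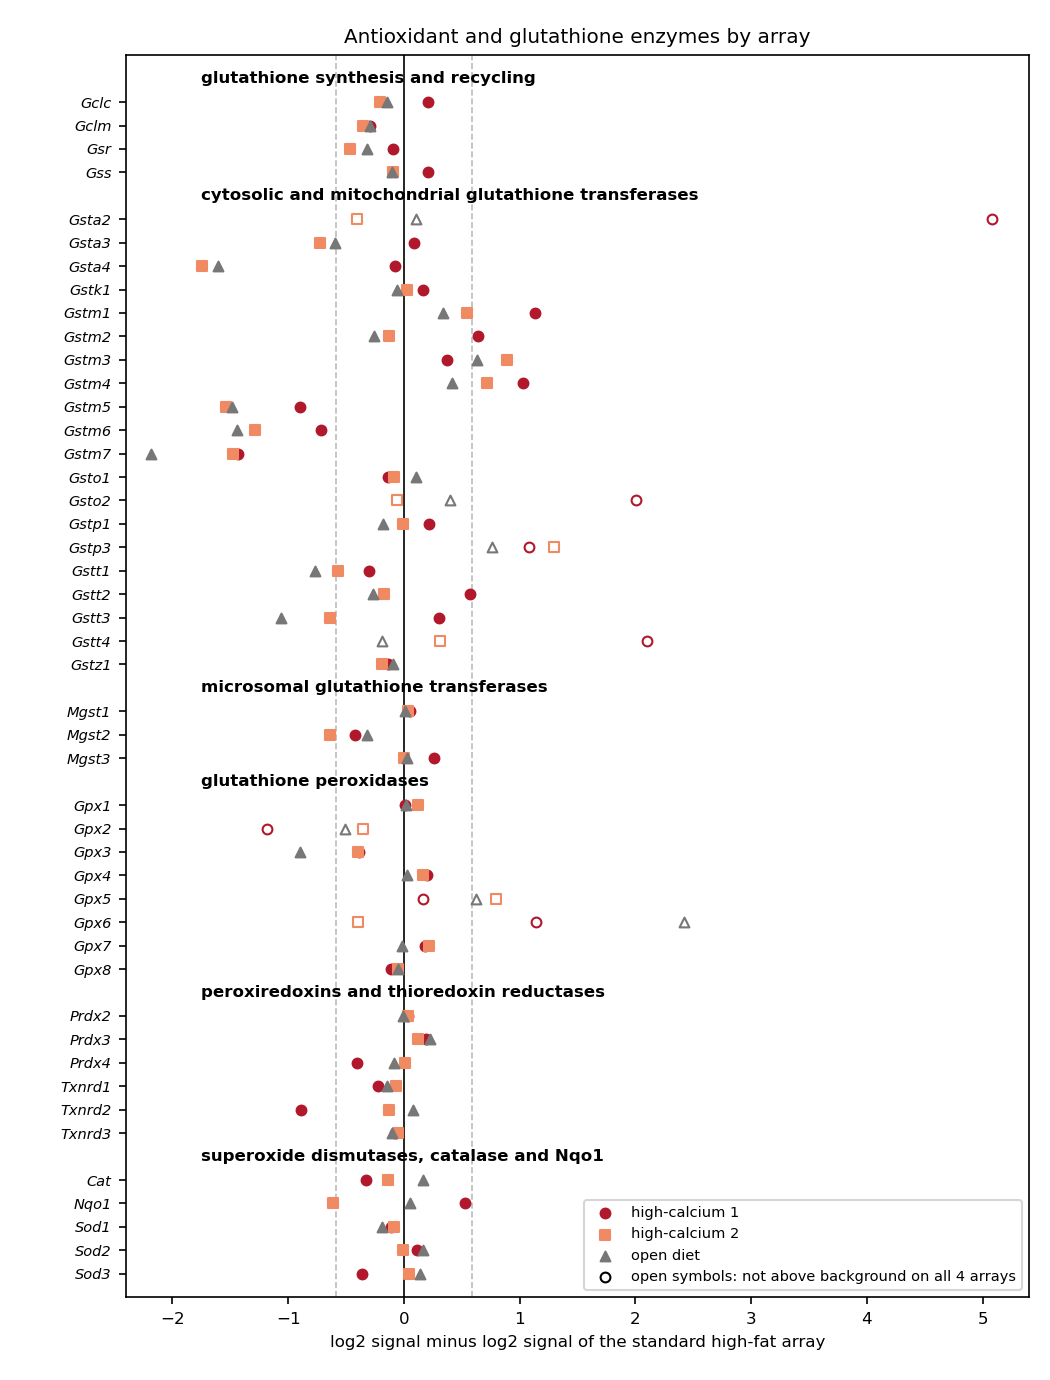
Log2 signal of each of the 46 genes on 3 arrays minus that on the standard high-fat array, grouped by role, with dashed lines at 1.5-fold and open symbols for genes not above background on all 4 arrays. Most genes lie near 0, whereas the mu-class genes Gstm5, Gstm6 and Gstm7 lie to the left of 0 on all 3 arrays and Gsta2 is far to the right on high-calcium replicate 1, over a value below background on the standard array.

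The mu-class transferases held every gene of the set that was above background and at least 1.5-fold from the standard array on both high-calcium arrays. Gstm5, Gstm6 and Gstm7 were lower by that measure, 3 of 39 genes against 1.12% of all genes above background. Gstm4 was higher, 1 of 39 against 2.11%. These cytosolic enzymes conjugate glutathione to a wide range of electrophiles, and they are encoded side by side on chromosome 3.

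Gstm7 had log2 signals of -2.49, -2.53, -1.06 and -3.24. The high-calcium arrays were almost equal, at -2.51 ± 0.03 (SD, n = 2), and the standard array was the highest of the 4. The difference was -1.45 (SE 0.32, 95% interval -2.63 to -0.27), with an adjusted p of 0.978 in limma. A second probe set annotated to Gstm7 ran the other way, with log2 signals of -2.61, -3.14, -3.52 and -3.73 and a difference of 0.64. Both probe sets were above background on all 4 arrays, so the direction given for Gstm7 is that of its brighter probe set only.

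Gstm5 had log2 signals of 1.31, 0.67, 2.21 and 0.72, and its high-calcium mean was 0.99 ± 0.45 (SD, n = 2). The standard array was again the highest, and the difference was -1.22 (SE 0.48, 95% interval -3.0 to 0.57). Gstm6 followed with log2 signals of -2.52, -3.09, -1.80 and -3.25 and a difference of -1.0 (SE 0.45, 95% interval -2.67 to 0.67). For Gstm5 and Gstm6, each measured by 1 probe set, the array of open diet lay beside high-calcium replicate 2.

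Gstm4 had log2 signals of -0.67, -0.97, -1.69 and -1.28. The standard array was the lowest, and the difference was 0.87 (SE 0.36, 95% interval -0.47 to 2.21). Gstm1, a major mu-class enzyme of liver and other tissues, had log2 signals of 3.61, 3.02, 2.47 and 2.81 and a difference of 0.84 (SE 0.46), made of 1.14 on replicate 1 and 0.54 on replicate 2. The probe set used for Gstm1 can share transcripts with related genes. Of its other 3 probe sets, differences of 0.84 and 0.85 were found for 2 and of -0.16 for the dimmest.

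Gstm3 had log2 signals of -3.33, -2.81, -3.70 and -3.07, close to background, and a difference of 0.63 (SE 0.43). Its probe set can share transcripts as well, and the other probe set of Gstm3, which was below background on every array, gave -0.01. Gstm2 divided the high-calcium arrays, with log2 signals of 2.27, 1.51, 1.63 and 1.38.

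In the order in which RefSeq records of the GRCm38.p6 assembly place them on chromosome 3, the 7 genes run Gstm5, Gstm7, Gstm6, Gstm3, Gstm2, Gstm1 and Gstm4. The genes with a lower signal on both arrays are the first 3 in this order. The 3 that were higher on both occupy places 4, 6 and 7, with Gstm2 between them. With each array centred on its median, which moved the median difference of all genes from 0.08 to -0.24, the mean differences of Gstm1 and Gstm4 were 0.52 and 0.56 and both genes were above the standard array on either replicate. Gstm3 then lay at -0.25 on replicate 1 and 0.89 on replicate 2, and quantile normalization divided it in the same way, at -0.23 and 0.86. The mean of Gstm2 turned to -0.06 with centring, whereas Gstm5, Gstm6 and Gstm7 were lower on both replicates under either scaling.

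**Figure D2:**
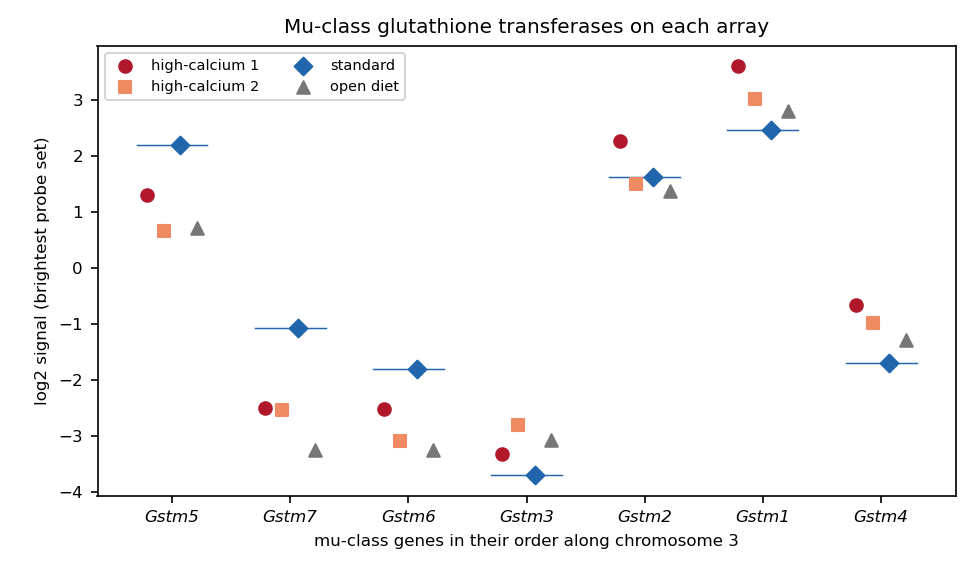
Log2 signal of the 7 mu-class genes on each of the 4 arrays, in their order along chromosome 3, with a line at the level of the standard array. The standard array lies above the other 3 for Gstm5, Gstm7 and Gstm6 and below them for Gstm3, Gstm1 and Gstm4.

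Promoters of genes from both ends of this row are shown because their signals lay on opposite sides of the standard array. The sequences are the 250 bases before the most upstream start site in RefSeq (GRCm38.p6), 5′ to 3′ on the strand of the gene, with capitals for the core of the antioxidant response element through which NRF2 acts, TGACNNNGC, searched on both strands.
Gstm5, chr3:107895604-107895853, plus strand: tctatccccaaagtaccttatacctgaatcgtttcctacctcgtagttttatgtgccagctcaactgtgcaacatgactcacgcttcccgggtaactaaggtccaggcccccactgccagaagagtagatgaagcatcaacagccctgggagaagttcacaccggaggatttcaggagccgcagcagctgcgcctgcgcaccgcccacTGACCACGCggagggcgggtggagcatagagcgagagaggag
Gstm7, chr3:107931818-107932067, minus strand: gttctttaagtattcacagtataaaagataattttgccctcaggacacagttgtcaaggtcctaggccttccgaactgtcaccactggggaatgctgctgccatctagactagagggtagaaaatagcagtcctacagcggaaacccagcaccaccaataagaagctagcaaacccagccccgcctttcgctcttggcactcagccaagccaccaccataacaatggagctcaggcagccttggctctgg
Gstm1, chr3:108017974-108018223, minus strand: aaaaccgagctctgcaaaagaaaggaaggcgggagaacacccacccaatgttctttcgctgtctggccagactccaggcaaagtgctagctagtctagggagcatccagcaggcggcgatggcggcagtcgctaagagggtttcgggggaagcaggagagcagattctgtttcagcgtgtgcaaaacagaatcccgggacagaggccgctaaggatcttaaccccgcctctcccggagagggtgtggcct
Gstm4, chr3:108044860-108045109, minus strand: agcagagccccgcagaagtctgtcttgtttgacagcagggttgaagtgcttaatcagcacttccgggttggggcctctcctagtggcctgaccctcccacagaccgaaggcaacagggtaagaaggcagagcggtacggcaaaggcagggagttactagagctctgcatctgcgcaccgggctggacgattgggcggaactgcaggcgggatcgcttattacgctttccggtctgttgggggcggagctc
The Gstm5 promoter holds the core, TGACCACGC, from position -42, and the windows shown for Gstm7, Gstm1 and Gstm4 do not hold these letters. A second, more downstream Gstm7 start has a window with TGACAAAGC. In windows from 250 bases before to 50 after each start, 41 of the 46 genes matched and 7 of those held the core: Gstm5, Gstm7, Gsta3, Gclm, Mgst1, Txnrd1 and Sod1. By window this was 7 of 55, or 12.7%, against 12.4% of all 32851 windows. By gene it was 17.1% against 14%. The share lay near that of promoters in general. Of the genes that hold the core, Gstm5, Gstm7, Gclm, Txnrd1 and Sod1 were lower on both high-calcium arrays by the probe set used. Lower on both were 43.6% of the 39 genes of the set above background and 27.1% of all genes above background. Gsta3 was divided, and Mgst1 was higher on both, by 0.04 on average. Gstm7, Gclm and Sod1 each had another probe set, above background on all 4 arrays, that was higher on both. A dimmer Txnrd1 probe set, below background on the standard array, was higher on both as well. Any part of the core in these values was not tested.

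The alpha-class transferases differed more between the 2 high-calcium arrays than between the diets. Gsta4 had log2 signals of -0.63, -2.29, -0.55 and -2.16, a gap of 1.66 within the high-calcium group. Replicate 1 and the standard array were high, and replicate 2 and the array of open diet were low. The difference between the diets, -0.91 (SE 0.98), came from replicate 2, since it was -0.08 on replicate 1 and -1.74 on replicate 2.

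By the probe set used, Gsta3 was also high on replicate 1 and the standard array and low on the other 2 arrays. Its log2 signals were 0.37, -0.44, 0.28 and -0.31, a smaller gap, and here replicate 1 was the highest. A dimmer Gsta3 probe set, above background on all 4 arrays, had -1.01, -1.45, -1.29 and -1.50. Its difference from the standard array was 0.28 on replicate 1 and -0.17 on replicate 2, or 0.06 on average. Gsta2, a transferase typical of liver, had log2 signals of 0.73, -4.76, -4.35 and -4.24. It was above background on replicate 1 only, so no fold against the standard array is given.

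Gstp1, Gstk1, Gstz1 and Gsto1 were steady across the arrays. Gstp1, the pi-class enzyme, had log2 signals of 3.23, 3.0, 3.01 and 2.83, with replicate 1 the highest and a difference of 0.10 (SE 0.34). Gstk1, a transferase of mitochondria and peroxisomes, had 1.12, 0.98, 0.95 and 0.89. Gstz1, which acts as an isomerase in tyrosine breakdown, had 3.07, 3.01, 3.20 and 3.11, and Gsto1, an omega-class enzyme with thioltransferase activity, had 1.99, 2.04, 2.13 and 2.23. For Gstk1, Gstz1 and Gsto1 the mean difference was between -0.16 and 0.10.

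Among theta-class enzymes, Gstt1 was lower on both arrays, with log2 signals of 0.52, 0.25, 0.82 and 0.06 and a difference of -0.44 (SE 0.35). Gstt3 had -1.70, -2.64, -2.0 and -3.06, so that replicate 1 lay above the standard array and replicate 2 below it, and Gstt2 was divided in the same way, with 0.57 on replicate 1 and -0.17 on replicate 2 relative to the standard array. Gsto2 was above background on replicate 1 and on the array of open diet only, at -2.27 and -3.86. Gstp3 and Gstt4 were below background on all 4 arrays and have no order.

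Signal of other tissues differed between the arrays as well. From a list of 19 genes of epididymis and testis 16 were measured, with a summed linear signal of 34.0, 0.647, 6.36 and 0.596, and 2 were above background on all 4 arrays. Spink8, an epididymal inhibitor of proteases, had log2 signals of 4.42, -6.92, 1.33 and -4.63, and the sperm protamine Prm1 had -0.20, -2.60, -0.30 and -3.69. Both were high where Gsta4 was high, but the list did not share 1 order. Against the standard array, 7 of the 16 genes were divided between the replicates. On both replicates 5 had less signal, against 23.9% of all genes, and 4 had more, against 38.6%. The epididymal peroxidase Gpx5 stayed near background and was above it only on replicate 2 and the array of open diet, where Gsta4 was low. The antimicrobial peptide gene Defb42 was bright on replicate 1 alone, at 3.25, -4.48, -3.21 and -5.46, as Gsta2 was. Spink8 and Defb42 made up most of the summed signal of the list on replicate 1. The median log2 signals of the list were -3.64, -5.22, -3.90 and -5.60.

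Adgrg2, a receptor of the efferent ducts from the same list, had -1.62, -2.84, 0.61 and -2.26, highest on the standard array, as Gstm5, Gstm6 and Gstm7 were.

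The 9 listed genes of glandular epithelium, all measured, summed to 3.76, 0.845, 6.56 and 1.28, and 3 were above background on all 4 arrays. They did not share 1 order. Lcn2 and Mmp7 were highest on the standard array, Lcn2 at -1.05, -1.66, 1.80 and -0.47. Epcam was lowest there, at -1.34, -2.63, -3.17 and -2.72, and Cdh1 was highest on replicate 1, at 0.12, -5.51, -1.33 and -5.43. Smooth muscle genes, 10 measured and 7 of them above background on all 4 arrays, summed to 71.0, 12.4, 12.2 and 9.98, highest on replicate 1.

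Endothelial genes were low on the same arrays as Gstm5 and Gstm6. All 12 were above background on every array. Of these, 10 had less signal on each high-calcium array than on the standard array, against 27.1% of all genes above background. For 3 of the 10 it was at least 1.5-fold less on both, against 1.12%. The sums were 9.10, 7.41, 11.8 and 7.63. Aplnr, the apelin receptor, had log2 signals of 1.37, 1.07, 2.04 and 1.11. Of 8 mesothelial genes, all above background on every array, 5 were higher on both high-calcium arrays, against 35.4% of all genes above background. Of the 5, 3 were higher by at least 1.5-fold on both, against 2.11%, as Gstm4 was. Upk3b had 0.11, -0.34, -1.20 and -0.24, while the sums of the list were 8.39, 2.48, 3.51 and 2.81, highest on replicate 1 and lowest on replicate 2. The part of these tissues and cell types in the values of the transferases was not tested. In these bulk samples, fewer cells of a type and less RNA per cell cannot be told apart.

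**Figure D3:**
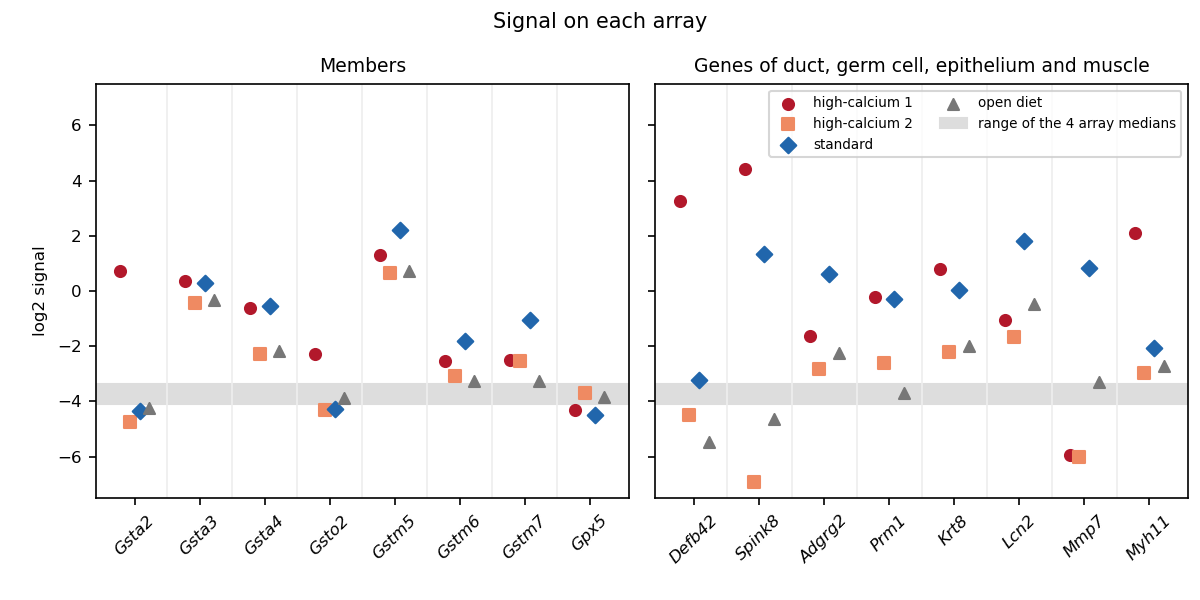
Log2 signal on each of the 4 arrays for 8 transferases and peroxidases (left) and for 8 genes of duct, germ cell, epithelium and muscle chosen from marker lists after their values had been seen (right), with a grey band for the range of the array medians. By the probe sets used, Gsta4 and Gsta3 are high on high-calcium replicate 1 and the standard array, as are Spink8, Prm1 and Krt8.

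The microsomal transferases, membrane enzymes of which several also act on lipid mediators, included some of the steadiest genes. Mgst1, which also has peroxidase activity, had log2 signals of 4.66, 4.64, 4.60 and 4.62, a difference of 0.04 (SE 0.32, 95% interval -1.13 to 1.22). Mgst2, which can form leukotriene C4, was lower on both arrays, with 0.92, 0.71, 1.35 and 1.03 and a difference of -0.53 (SE 0.34). Mgst3 had 1.75, 1.49, 1.49 and 1.52, with replicate 1 the highest.

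Enzymes of glutathione synthesis and recycling lay within a narrow range, from -0.32 to 0.05 in mean difference. Gclm, the modifier subunit of the ligase, was lower on both high-calcium arrays, with log2 signals of -1.18, -1.25, -0.89 and -1.18 and a difference of -0.32 (SE 0.32), whereas its dimmer probe set was higher on both, by 0.40 on average. Gclc, the catalytic subunit, had -0.89, -1.31, -1.10 and -1.25 and was on opposite sides of the standard array on the 2 replicates. Gss had -0.88, -1.18, -1.08 and -1.18. Gsr, glutathione reductase, had -0.75, -1.11, -0.65 and -0.97, with the standard array the highest and a difference of -0.28 (SE 0.38).

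Of the 8 glutathione peroxidases, 5 were above background on all 4 arrays. Gpx1, the ubiquitous cytosolic selenoenzyme, had log2 signals of 4.12, 4.24, 4.11 and 4.13. Gpx4, which reduces phospholipid hydroperoxides and restrains ferroptosis, had 4.23, 4.20, 4.03 and 4.06, so that both high-calcium arrays were above the standard array by 0.20 and 0.17. Its second probe set was higher on both arrays too.

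Gpx3, the secreted plasma form that fat also makes, had the widest difference of these 5, at -0.39 (SE 0.32). Its log2 signals were 2.20, 2.19, 2.58 and 1.69, and the array of open diet was the lowest. Gpx7 and Gpx8, enzymes of the endoplasmic reticulum, differed by 0.20 and -0.08. Gpx5, the epididymal form, stayed near background at -4.31, -3.69, -4.48 and -3.86. Gpx2, the form of the gut, was above background on the standard array only, and Gpx6 on none, so no fold is given for either.

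Peroxiredoxins differed little. Prdx2 in the cytosol had log2 signals of 2.34, 2.33, 2.30 and 2.29, a difference of 0.04 (SE 0.32, 95% interval -1.14 to 1.22). Prdx3, the mitochondrial form, had 2.01, 1.95, 1.82 and 2.05, with the array of open diet above all others. Prdx4, in the endoplasmic reticulum, had 0.54, 0.96, 0.95 and 0.87, and only replicate 1 was apart.

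The thioredoxin reductases, selenoenzymes that supply thioredoxin with electrons from NADPH, were each lower on both high-calcium arrays by the probe set used. Txnrd1, the cytosolic enzyme, had log2 signals of 0.05, 0.20, 0.27 and 0.12, a difference of -0.15 (SE 0.33). A dimmer Txnrd1 probe set ran the other way, at -2.66, -3.43, -4.34 and -3.15, and was below background on the standard array. Txnrd2, the mitochondrial enzyme, had -1.91, -1.15, -1.02 and -0.95, and its difference of -0.51 (SE 0.53) came from replicate 1, at -0.89 against -0.13 on replicate 2. Txnrd3 differed by -0.06, while another of its probe sets was higher on both arrays, by 0.56 on average.

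Superoxide dismutases and catalase were bright and nearly level. Sod1, the cytosolic copper-zinc enzyme, had log2 signals of 2.53, 2.55, 2.64 and 2.45. Sod2, the manganese enzyme of mitochondria, had 3.60, 3.48, 3.49 and 3.65. Sod3, the extracellular form, had 1.48, 1.89, 1.85 and 1.98, with replicate 1 below the other 3 arrays.

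Cat was lower on both high-calcium arrays, at 3.16, 3.35, 3.48 and 3.65, a difference of -0.23 (SE 0.34), and its other probe set was lower on both as well. Nqo1 had log2 signals of -2.12, -3.25, -2.64 and -2.59. The standard array and the array of open diet lay between the 2 high-calcium arrays, whose gap was 1.13.

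**Figure D4:**
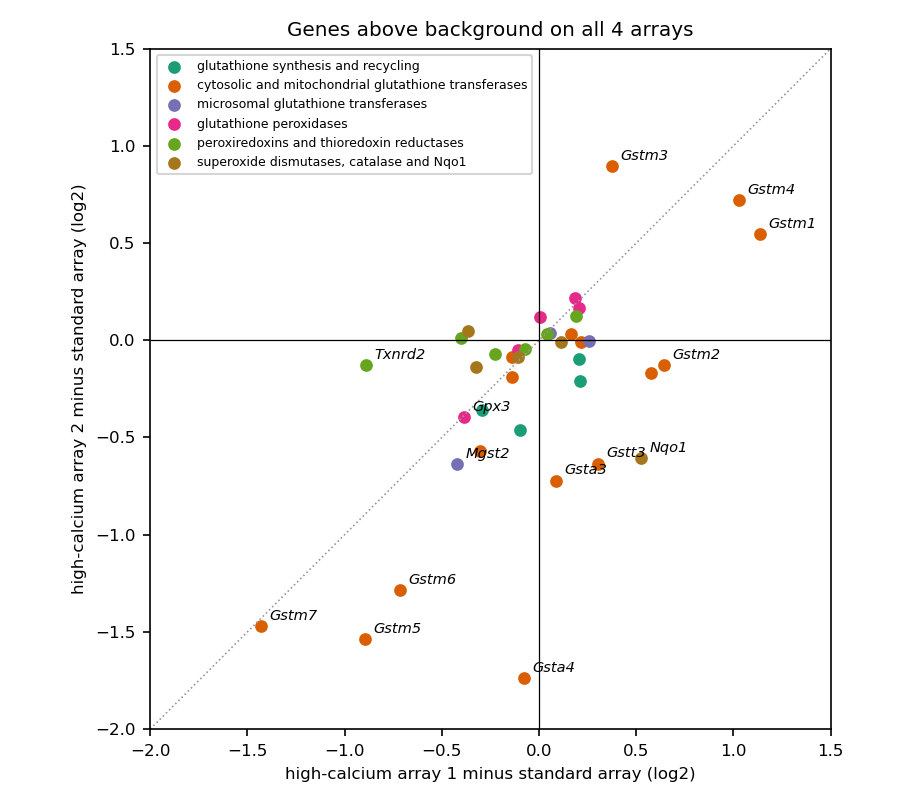
Log2 difference from the standard array on high-calcium replicate 1 (horizontal) and replicate 2 (vertical) for the 39 genes above background on all 4 arrays, coloured by role, with a dotted line of equality. Gstm5, Gstm6 and Gstm7 are low on both axes and Gstm1 and Gstm4 high on both, whereas Gsta4 lies at -0.08 and -1.74; both axes share the standard array.

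The gap between the 2 high-calcium arrays reached 1.5-fold for 9 of the 39 genes, against 18.7% of all genes above background. The widest gaps were those of Gsta4, Nqo1, Gstt3, Gsta3 and Gstm2. Where several probe sets of a gene were above background on all 4 arrays, as for 17 genes, 5 had probe sets on opposite sides of the standard array: Gclm, Gstm7, Prdx4, Sod1 and Txnrd3.

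Other genes of the system were read from a list of 72, of which 65 were measured, covering NRF2 control, thioredoxin and glutaredoxin, NADPH supply, cysteine supply and export of conjugates. limma called 0 of them, against 0% of all genes. On both high-calcium arrays 24 were lower, against 23.9% of all genes, and 17 were higher, against 38.6%. The median difference over the 58 above background was -0.003, with -0.041 on replicate 1 and -0.035 on replicate 2.

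Nfe2l2, which encodes NRF2, had log2 signals of 0.95, 1.23, 1.26 and 1.21, and Keap1, its inhibitor, had -0.81, -0.88, -0.90 and -1.20. The NRF2 targets Hmox1 and Srxn1 were low on replicate 1 alone, Hmox1 at -1.55, -0.18, -0.23 and -0.11 and Srxn1, which restores overoxidised peroxiredoxins, at -1.41, -0.57, -0.73 and -0.58. Hpgds, a sigma-class transferase that makes prostaglandin D2, was low on replicate 1 as well, at -2.55, -0.40, -0.37 and -0.29. The macrophage list, all 14 genes of it measured, summed to 48.6, 82.9, 79.8 and 82.2, with replicate 1 the lowest, and the part of macrophages in these values was not tested.

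Ptges, which makes prostaglandin E2 with glutathione, was higher on both arrays, at 0.46, -1.33, -2.04 and -1.76, with a difference of 1.60 (SE 1.06). Osgin1, an NRF2 target, was highest on replicate 1, where Hmox1 and Srxn1 were low, at -1.86, -3.11, -3.20 and -2.61. Its difference was 0.71 (SE 0.77). Chac2, which degrades glutathione, differed by -0.59 (SE 0.34). Txn1, thioredoxin itself, had 3.58, 3.82, 3.71 and 3.67. The cystine transporter gene Slc7a11 was below background on all 4 arrays.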

How the data were processed

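Fat-pad RNA was hybridised to 4 Affymetrix arrays with 45101 probe sets. The authors deposited 1 linear intensity per probe set and array. The submitters' processing notes name RMA without a version, but the values are not log2. The scaling of the arrays is not stated in any label, so it remains unknown. In the platform annotation 34958 probe sets had 1 symbol, 932 several and 9211 none, and 34754 matched a current record.

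Intensities were log2 transformed with no added constant. The diets were compared by linear models with moderated variance (limma 3.58.1, R 4.3.3; two-sided) over all 18194 genes with Benjamini-Hochberg adjustment, with 1 residual and 2.38 total degrees of freedom. The procedure was tested on simulated data. An exact permutation test of 3 arrays cannot go below a one-sided p of 0.333. The number of arrays limits the precision.

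Members and lists were chosen with earlier results of these data known. Values on each array were given for a fixed set of major enzymes, for members at least 1.5-fold from the standard array on both high-calcium arrays, for the 5 widest gaps between these arrays, and for some others. Of the wider list, 6 fixed genes were named, and the 4 with the largest difference among those above background on all 4 arrays and on the same side on both high-calcium arrays. Alternatives covered probe set choice, normalization, an added constant, a filter, the model, thresholds and the removal of either high-calcium array. Marker lists not described elsewhere, for B cells and red blood cells, had median log2 differences of 0.71 and 0.03. Python 3.11.15 and matplotlib 3.10.9 drew the figures.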

Additional observations from a re-analysis of the deposited data

Results flagged for a closer look

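The array of open diet entered no comparison between the diets. On it, 2 genes of the set that were above background had a log2 signal well above that on the standard array. Gstm3 was 0.63 higher there on the log2 scale, and both high-calcium arrays also lay above the standard array, by 0.37 and 0.89. Gpx5 was 0.62 above a value that was itself below background on the standard array, so no fold is given. Its signal on the array of open diet, -3.86, lay close to background.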

How the results depend on the processing

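No paired analysis was possible because the standard diet has 1 labelled array, so the groups share fewer than 2 replicate numbers. Leaving out 1 high-calcium array leaves 1 array per diet, which gives values with no test.

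limma called 0 of the 46 genes under every alternative run. Over all genes it called 96 on median-centred arrays and 6 with a trend and robust estimation, and 0 under the others. Median centring moved the median difference of the members to -0.40 and that of the wider list to -0.32, against -0.29 over all genes above background, and left 4 members and 5 listed genes higher on both arrays, 5 members at least 1.5-fold lower and 0 at least 1.5-fold higher. The members' median was -0.00081 with the mean of all probe sets. The count at least 1.5-fold higher was then 3, and it was 2 without shared probe sets. The count at least 1.5-fold lower was 1 with background at 2 times the array median and 1 at 2-fold, where 0 were higher. The wider list's median was 0.0084 with the mean of probe sets, -0.035 without shared ones, 0.017 with probe sets chosen over the 3 labelled arrays, -0.0100 after quantile normalization and 0.0052 with an added constant.

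Without 1 high-calcium array, counts refer to the other alone. Members lower then numbered 20 to 31, and 31 without replicate 1. Members higher numbered 15 to 26, and 26 without replicate 2. Members at least 1.5-fold lower numbered 4 to 8, and 8 without replicate 1. Those at least 1.5-fold higher numbered 2 to 3. The members' median ran from -0.085 to 0.0058. In the wider list 34 to 38 genes were lower and 27 to 31 higher, with medians from -0.041 to -0.035.

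Among 35 named members, 23 of 242 tested alternatives turned the direction. The mean of probe sets gave -0.18 for Gclc, 0.040 for Gclm, -0.74 for Mgst1, 0.34 for Prdx4, 0.96 for Sod1 and 1.06 for Txnrd1. Without shared probe sets Gclc was -0.36 and Sod1 0.043. Quantile normalization gave -0.031 for Gclc and -0.018 for Mgst1, and an added constant gave 0.074 for Nqo1. Median centring gave -0.31 for Gclc, -0.25 for Gpx1, -0.13 for Gpx4, -0.26 for Gss, -0.22 for Gstk1, -0.061 for Gstm2, -0.21 for Gstp1, -0.27 for Mgst1, -0.19 for Mgst3, -0.28 for Prdx2, -0.16 for Prdx3 and -0.27 for Sod2. Centring shifts the difference of every gene by the same amount. The averages for Mgst1, Prdx4, Sod1 and Txnrd1 include a probe set below background on all 4 arrays. These probe sets differed by -1.53, 1.81, 4.22 and 2.02. The cause of the other turns was not tested. Gstm7 was -0.40 when its 2 probe sets were averaged and otherwise between -1.77 and -1.09.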
